A study of Homo sapiens with 10 samples.

Results

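The cell cycle genes described here are those whose symbol names a cyclin of the A to E classes, a cyclin-dependent kinase (CDK) or CDK inhibitor, an E2F factor, a minichromosome maintenance (MCM) or CDC protein, a BUB checkpoint protein, an Aurora kinase or a Polo-like kinase (PLK). A pattern of these names was matched to the gene symbols of the probe sets, without use of the measured values, and 71 of 14884 named genes were found. They are called members below. The annotation used pairs only some of the probe sets with a symbol, and CDKN1A, CDKN1B, CDKN2C and the ORC subunits, which have none in it, were not analysed here. Of the 71 members, 61 (85.9%) had a mean signal at or above 4.63, the median of all named genes on the log2 scale, and 10 lay below it.

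Signals were measured in HEK293T cells, an established human embryonic kidney line, on 10 arrays (Affymetrix GeneChip Human Gene 2.0 ST). Of these, 8 came from cells exposed for 6 h to bacterial extracellular vesicles (bEVs) of a single strain, namely L. acidophilus, L. rhamnosus, L. plantarum, L. salivarius, S. thermophilus, L. paracasei, L. fermentum or Lc. lactis (spelled Lc. lactics in the labels). The other 2 came from control cells without bEV. The dose of each bEV was the maximum that these cells tolerated (MTD), and it was highest for L. paracasei and next for L. rhamnosus. L. plantarum and L. salivarius shared the lowest MTD, so these bEVs can be compared at a matched number of particles per cell. The protein dose was not matched, since the paper gives L. plantarum bEVs the highest protein content per particle. Strain and dose cannot be told apart between bEVs of unequal MTD. Triplicate RNA was pooled into a composite sample, and each bEV has 1 array. Nothing in the labels says that the 2 controls are separate cultures, and p-values therefore measure only the spread between these arrays. The cell line field reads HEK293T on every sample, while the titles of some bEV samples count upward from HEK294T to HEK297T, and the treatment protocol names another agent, Pk2 at 10 nM, whose role here is not explained. LIN28B, a marker of this line, had a log2 signal of 8.32 to 8.69 over the 10 arrays and KRT18 of 7.32 to 7.72, whereas the leukocyte markers CD14 and LYZ and the hepatocyte marker ALB stayed at or below 3.05. Of the other markers of this line, VIM ran from 7.68 to 8.12, PAX2 from 4.10 to 5.15 and KRT8 from 3.73 to 4.53. Of the other markers of other cell types, APOA1 (hepatocyte) reached 3.635, PECAM1 (endothelial) 3.199 and DCN (fibroblast) 2.003.

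Passage through the cell cycle is driven by CDKs, each active only with a cyclin partner. D-type cyclins with CDK4 or CDK6, then E-type cyclins with CDK2, phosphorylate the retinoblastoma protein RB, which releases E2F factors to switch on genes of DNA synthesis. MCM proteins are loaded at replication origins in G1 and unwind DNA in S phase, and A- and B-type cyclins with CDK1, the Polo-like and the Aurora kinases carry cells through mitosis until the anaphase-promoting complex (APC/C) with its activator CDC20 marks cyclin B and securin for destruction. HEK293T cells carry the large T antigen of SV40, which binds both RB and p53. In RNA from a whole culture, a smaller share of cells in a phase and less of an mRNA in each cell cannot be told apart.

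Differences of the cell cycle genes between bEV and control arrays were small in size. The mean of the 8 bEV arrays minus the mean of the controls, a log2 difference, ran from -0.33 for CDC20 to 0.56 for PLK4, with a median of -0.04 over the 71 members and 0.00 over all genes. No member passed the test of the 8 bEV arrays against the 2 controls (limma, Benjamini-Hochberg adjustment over all 14884 genes), in which 0% of all genes were called. The lowest adjusted p in limma was 0.306, that of PLK4. At an unadjusted p under 0.05, 8 members were counted, 4 with higher and 4 with lower bEV signals, which is the same share (11.3%) as among all genes (11.3%, 1682 genes). The limma SE of a member's difference was 0.083 to 0.229, with a median of 0.114. The 8 strains are not replicates of 1 treatment, so the SE and p also hold differences of strain and dose. Because no member passed, the differences below are given as values.

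The arrays can also be set side by side without a test. All 8 bEV arrays lay above both controls for 3 members (4.23%), against 5.11% of all genes, and below both controls for 7 members (9.86%), against 4.07% of all genes. For genes with a mean signal of at least the median, these shares were 8.37% above and 5.04% below, and 3 (4.92%) and 6 (9.84%) of the 61 brighter members were counted. With a single control to clear, 10 members (14.1%, against 15.5% of all genes) lay above and 17 (23.9%, against 12.4%) below control 2, and 13 (18.3%) each lay above and below control 1 (14.5% and 14.3% of all genes). The members above both controls were PLK4, E2F7 and CDC16. Those below were CCNB2, CDC20, CDC123, CCNB1, PLK5, PLK1 and CCNA2, and 5 of these 7 have their known role in mitosis (CCNB1, CCNB2, CCNA2, PLK1 and CDC20). Of 12 members grouped as mitotic cyclins and kinases, 4 lay below and 1 above both controls. The 1 above was PLK4, a kinase of centriole duplication that was counted in this group. Of 12 members of the spindle checkpoint, the APC/C and mitotic exit, 1 lay below and 1 above. Of 35 measured G2/M genes with other names, 3 lay below and 2 above, with 21 mean differences positive and 14 negative. An excess of mitotic genes among the 7 was not tested. The median distance between control 1 and control 2 was 0.12 for the members, 0.14 for all genes at or above the median signal and 0.17 for all genes.

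**Figure D1:**
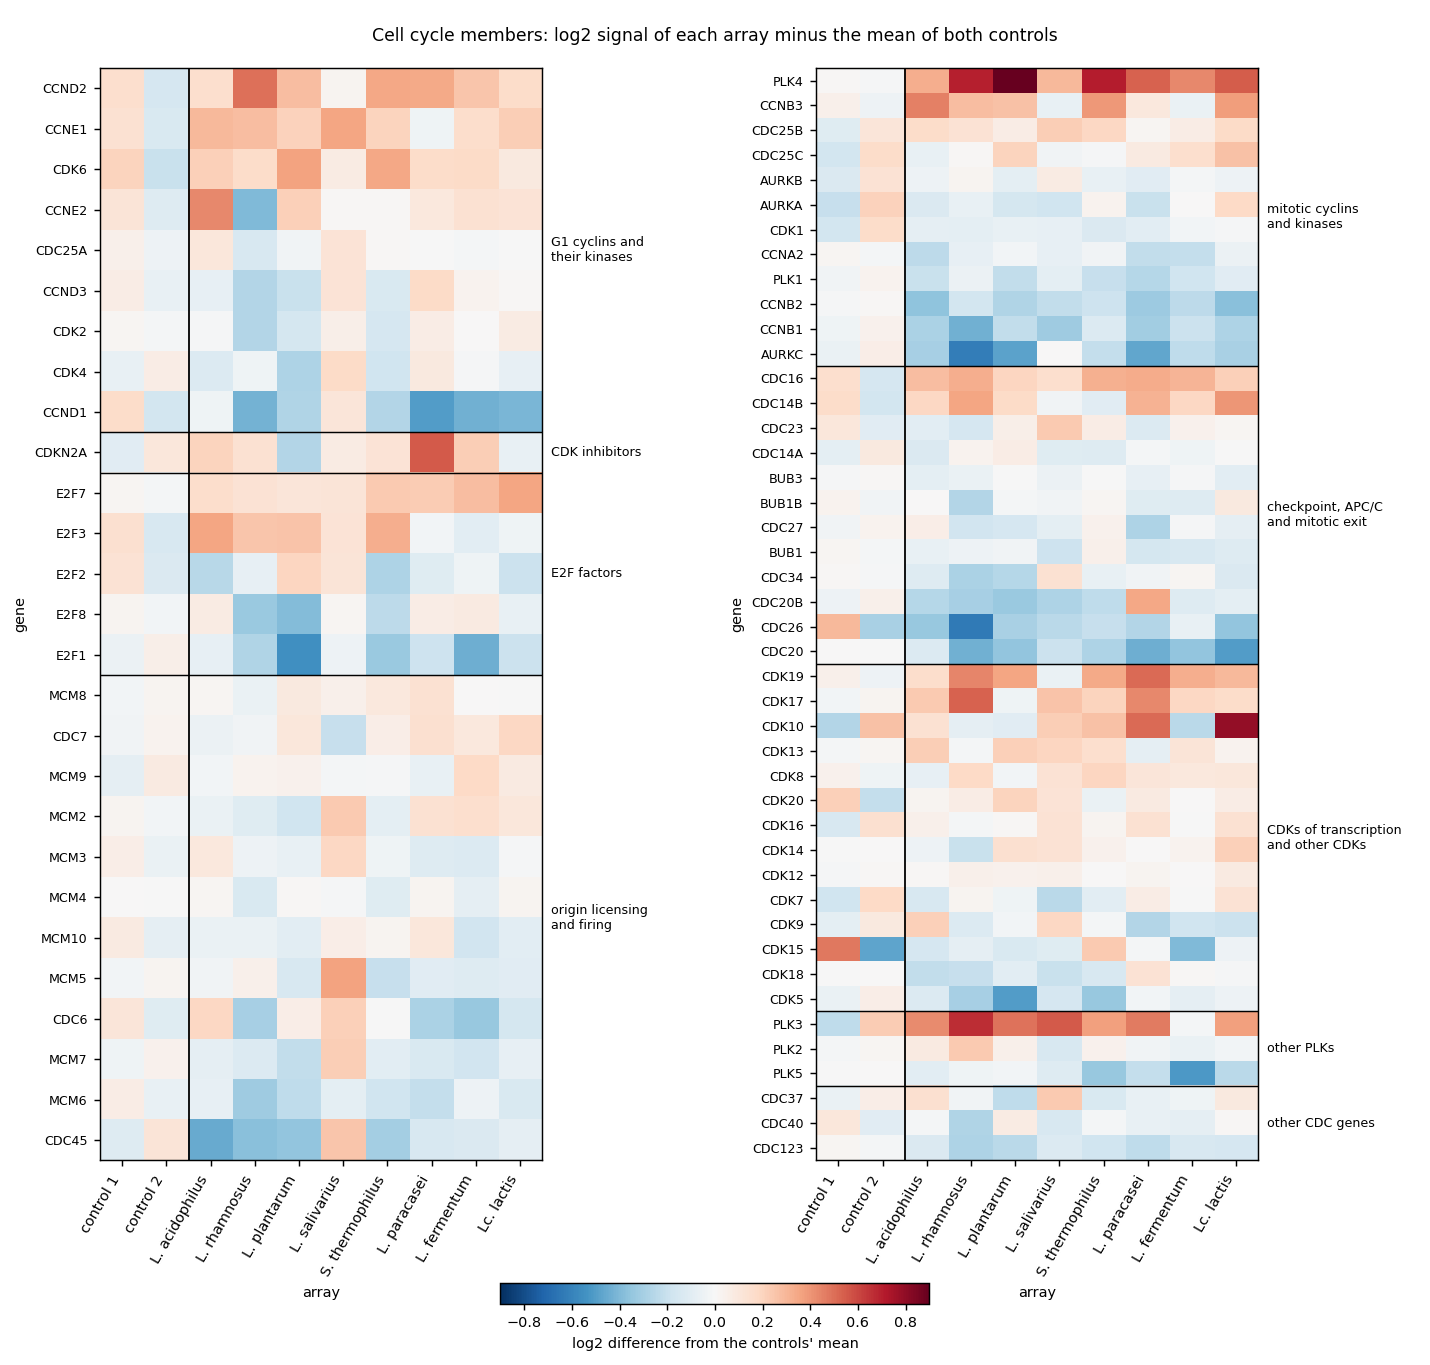
Log2 signal of each of the 71 members (rows, grouped by role) in each of the 10 arrays (columns) minus the mean of both controls; red is higher, blue is lower, and the black vertical line parts controls from bEV arrays. PLK4 has the darkest red, 0.90 with L. plantarum, and CDC20, CCNB1 and CCNB2 are blue in all 8 bEV columns.

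PLK4, the kinase that starts the duplication of centrioles, had the largest difference of all members. Its log2 signal was 5.77 and 5.75 in controls 1 and 2, and 6.09 with L. acidophilus, 6.46 with L. rhamnosus, 6.66 with L. plantarum, 6.06 with L. salivarius, 6.47 with S. thermophilus, 6.29 with L. paracasei, 6.20 with L. fermentum and 6.31 with Lc. lactis. The lowest of the 8 bEV arrays stood 0.29 above the nearest control, while the controls were 0.02 apart, so the groups did not overlap. The mean difference was 0.56 ± 0.14 (limma SE, 8 against 2 arrays; adjusted p = 0.306 in limma), a 1.47-fold higher signal. L. plantarum, S. thermophilus and L. rhamnosus gave the 3 highest arrays, with differences of 0.90, 0.71 and 0.70, and these passed 1.5-fold. L. salivarius and L. acidophilus gave the 2 lowest, 0.30 and 0.33. The highest and the lowest array were thus those of L. plantarum and L. salivarius, which were given at the same MTD in particles per cell. Over all genes, too, the median size of a difference was highest with L. plantarum and lowest with L. salivarius. With 1 array each, their difference was not tested.

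CDC20, which activates the APC/C at the onset of anaphase, had the most negative difference. Its log2 signal was 8.39 and 8.38 in controls 1 and 2, and 8.26 with L. acidophilus, 7.95 with L. rhamnosus, 8.03 with L. plantarum, 8.19 with L. salivarius, 8.11 with S. thermophilus, 7.94 with L. paracasei, 8.03 with L. fermentum and 7.89 with Lc. lactis. All bEV arrays were below both controls, by at least 0.12, and the controls were 0.01 apart. The mean difference was -0.33 ± 0.11 (limma SE; adjusted p = 0.344 in limma), or 0.793 times the control signal. The lowest array was that of Lc. lactis and the highest that of L. acidophilus, and none reached 1.5-fold.

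CCNB1, cyclin B1, forms the main mitotic kinase with CDK1. Its log2 signal was 8.42 and 8.50 in controls 1 and 2, and 8.18 with L. acidophilus, 8.03 with L. rhamnosus, 8.24 with L. plantarum, 8.14 with L. salivarius, 8.34 with S. thermophilus, 8.15 with L. paracasei, 8.27 with L. fermentum and 8.19 with Lc. lactis. The mean difference was -0.27 ± 0.10 (limma SE; adjusted p = 0.360 in limma), with L. rhamnosus lowest. CCNB2, the other B-type cyclin of dividing cells, had signals of 7.45 and 7.48 in the controls, and 7.10 with L. acidophilus, 7.30 with L. rhamnosus, 7.20 with L. plantarum, 7.24 with L. salivarius, 7.28 with S. thermophilus, 7.14 with L. paracasei, 7.23 with L. fermentum and 7.10 with Lc. lactis. Its mean difference was -0.27 ± 0.09 (limma SE; adjusted p = 0.353 in limma), and its nearest bEV array lay 0.15 below the lower control. Both B-type cyclins thus stood below both controls with every bEV, although the strains took a different order, since L. rhamnosus was lowest for CCNB1 and highest for CCNB2.

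PLK1, the Polo-like kinase of mitotic entry and spindle assembly, had signals of 10.23 and 10.30 in the controls and of 10.01 to 10.21 in the bEV arrays, with a median of 10.08. Its mean difference was -0.16 ± 0.09 (limma SE), and the gap to the nearest control was 0.02. CCNA2, cyclin A2, which serves both S phase and mitosis, had signals of 9.92 and 9.88 in the controls and of 9.66 to 9.88 in the bEV arrays, with a median of 9.82 and a mean difference of -0.12 ± 0.10 (limma SE). The gap of CCNA2 was 0.0023, so its place below both controls rests on a very small step. Under quantile normalization CCNA2, PLK1 and CDC16 overlapped the controls, as CCNA2 and PLK5 did when arrays were centred on their medians.

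The remaining mitotic cyclins and kinases did not stand apart from the controls. CDK1 itself had signals of 7.51 and 7.85 in the controls and of 7.55 to 7.67 in the bEV arrays, all between the 2 controls, with a mean difference of -0.07. Its 8 bEV arrays were closer together (SD 0.038) than the 2 controls were to each other (0.33). AURKA, the Aurora kinase of the spindle poles, had signals of 6.72 and 7.14 in the controls and a mean difference of -0.06, which was 0.15 against control 1 and -0.28 against control 2. AURKB, the kinase of the chromosomal passenger complex, had a mean difference of -0.03. AURKC, an Aurora kinase known mainly from germ cells, had a signal of only 3.28 and 3.39 in the controls and of 2.71 to 3.34 in the bEV arrays, and its difference passed 1.5-fold with L. rhamnosus (-0.62). CDC25B and CDC25C, phosphatases that activate CDK1, had mean differences of 0.13 and 0.07. CCNB3, a B-type cyclin with a known role in meiosis, was dim (3.50 to 3.59 in the controls) with a mean difference of 0.22 and the highest value, 0.45, with L. acidophilus. Over the 12 mitotic cyclins and kinases measured, the median difference was -0.07, with 1 (8.33%) above and 4 (33.3%) below both controls. Of all genes, 5.11% lay above and 4.07% below, and of genes at or above the median signal 8.37% and 5.04%.

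**Figure D2:**
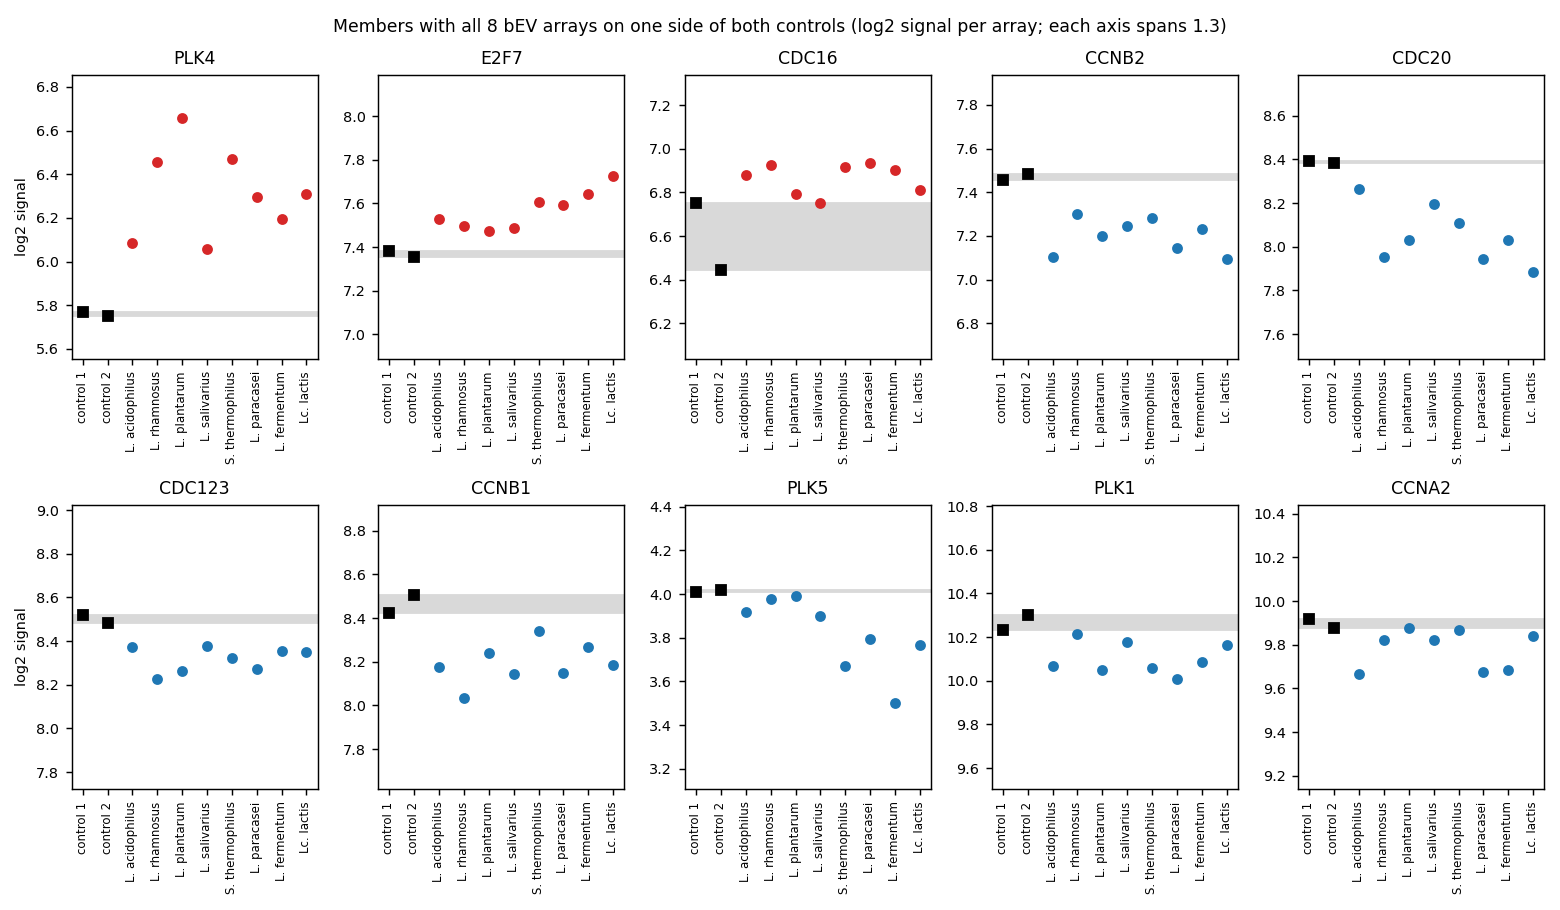
Log2 signal (y axis, each panel spanning 1.3) of the 10 members whose 8 bEV arrays all lay on one side of both controls, by array (x axis); black squares are controls, the grey band spans them, red circles are bEV arrays above and blue circles bEV arrays below. The band is narrow for PLK4 (0.02) and CDC20 (0.01) and wide for CDC16 (0.31), where the lowest bEV array touches its upper edge.

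Promoters of many late cell cycle genes carry a CCAAT box, read by the factor NF-Y, and a cell cycle homology region (CHR), read by the DREAM and MuvB complexes, while those of G1/S genes carry E2F sites. The 120 bases just before the start are printed for 8 members apart from both controls. These were grouped with the mitotic kinases and cyclins (PLK4 among them), the APC/C or the E2F factors, and the comparison of the arrays turns on them. Sequences are from RefSeq (GRCh38.p14), 5′ to 3′ on the strand of the gene, and end at the base before the first listed start. Capitals mark a CCAAT box (CCAAT, or ATTGG on the other strand), a CHR (TTTGAA or TTCAAA) or an E2F site (TTTCCCGC, TTTGGCGC, TTTCGCGC or TTTGCCGC, or their reverse complements). The windows are, in the order printed, chr4:121823884-121824003 (minus strand), chr5:69167030-69167149 (plus), chr15:59105026-59105145 (plus), chr1:43358861-43358980 (plus), chr16:23678769-23678888 (plus), chr4:127880773-127880892 (plus), chr12:77065570-77065689 (minus) and chr13:114234777-114234896 (plus).
CCNA2: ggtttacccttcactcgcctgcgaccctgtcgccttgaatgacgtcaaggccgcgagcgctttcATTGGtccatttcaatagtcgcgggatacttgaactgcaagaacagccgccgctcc
CCNB1: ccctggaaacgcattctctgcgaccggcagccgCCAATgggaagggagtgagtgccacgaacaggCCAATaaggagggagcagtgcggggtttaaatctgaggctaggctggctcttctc
CCNB2: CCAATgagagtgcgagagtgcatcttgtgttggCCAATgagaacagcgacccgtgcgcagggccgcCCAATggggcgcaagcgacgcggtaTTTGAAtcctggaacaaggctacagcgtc
CDC20: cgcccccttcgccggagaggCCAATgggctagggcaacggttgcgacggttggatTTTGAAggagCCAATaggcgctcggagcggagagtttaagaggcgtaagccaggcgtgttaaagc
PLK1: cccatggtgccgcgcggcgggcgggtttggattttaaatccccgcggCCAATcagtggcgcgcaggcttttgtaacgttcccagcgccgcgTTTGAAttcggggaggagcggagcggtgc
PLK4: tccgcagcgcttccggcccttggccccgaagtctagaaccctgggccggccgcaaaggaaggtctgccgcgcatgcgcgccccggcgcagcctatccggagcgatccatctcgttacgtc
E2F7: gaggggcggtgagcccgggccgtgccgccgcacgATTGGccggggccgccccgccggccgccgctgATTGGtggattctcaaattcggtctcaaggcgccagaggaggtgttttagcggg
CDC16: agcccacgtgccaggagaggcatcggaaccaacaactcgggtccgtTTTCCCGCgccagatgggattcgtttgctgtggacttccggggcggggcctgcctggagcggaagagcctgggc

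A CCAAT box was found in all 5 windows of mitotic members below both controls (CCNA2, CCNB1, CCNB2, CDC20 and PLK1) and in that of E2F7, which lay above. CCNB2 held 3 of them, CCNB1, CDC20 and E2F7 held 2 each, and CCNA2 and PLK1 held 1 each. The CHR letters stood in CCNB2 and PLK1, both from base -29 to base -24 counted from the start, and in CDC20 from base -65 to base -60. Only the exact letters given above were searched, so a variant CHR in another window would not be found. The window of PLK4, which has 3 listed starts, held none of these motifs, and that of CDC16 held an E2F site. A promoter was listed for 61 of the 71 members. In their windows a CCAAT box was found for 24 members (39.3%), against 21.2% of 27305 genes, a CHR for 6 (9.84%), against 5.75%, and an E2F site for 9 (14.8%), against 1.41%. Neither CDC123 nor PLK5, the other members below both controls, was among the 24 members with a CCAAT box. The 10 members without a listed promoter could not be searched. The printed windows were chosen by the signals of their genes, and a link between motif and signal was not tested. All matches describe letters only, and whether a factor sat at them was not measured.

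**Figure D3:**
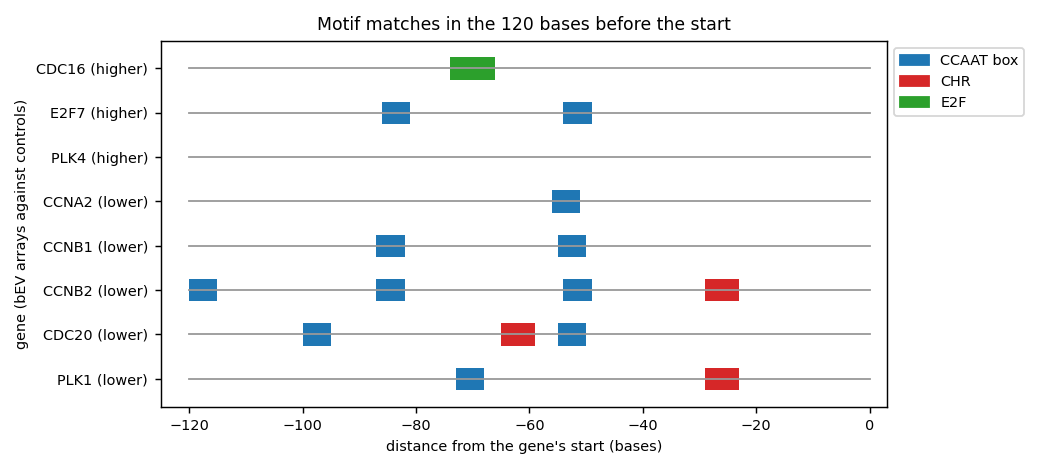
Positions of motif matches in the 120 bases before the start of 8 members (x axis, distance from the start in bases; rows, genes, with the side of the controls on which their bEV arrays lay). The CHR matches of CCNB2 and PLK1 share the position -29 to -24, and PLK4 shows no match.

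Members of the spindle checkpoint, the APC/C and mitotic exit had a median difference of -0.07 over 12 genes. CDC16 lay above and CDC20 below both controls (8.33% of the group each, against 5.11% and 4.07% of all genes). CDC16, a core subunit of the APC/C, had signals of 6.75 and 6.45 in the controls and of 6.75 to 6.93 in the bEV arrays, with a median of 6.89. Its mean difference was 0.27 ± 0.10 (limma SE; adjusted p = 0.376 in limma), but the controls were 0.31 apart and the lowest bEV array, that of L. salivarius, was 0.0018 above control 1. Against control 1 alone the difference of CDC16 was 0.11, and against control 2 alone it was 0.42. CDC26, a small APC/C subunit, showed the same dependence, with signals of 6.09 and 5.51 in the controls and of 5.17 to 5.73 with bEVs. Its mean difference of -0.30 became -0.59 against control 1 and -0.01 against control 2, and the value with L. rhamnosus, -0.63, passed 1.5-fold.

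The other subunits CDC27 and CDC23 had mean differences of -0.09 and 0.01. The checkpoint genes BUB1, BUB1B and BUB3, whose products hold back anaphase until chromosomes are attached, had differences of -0.09, -0.06 and -0.05. BUB3 was below the mean of the controls with all 8 bEVs, yet by at most 0.09. The phosphatases CDC14A and CDC14B had differences of -0.04 and 0.18. CDC34 had -0.09 and was counted in this group, although it is a ubiquitin-conjugating enzyme of the SCF ligases. CDC20B, a relative of CDC20, had a signal under 2.84 in every array.

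Among the G1 cyclins and their kinases no member stood apart from both controls, where 5.11% of all genes lay above and 4.07% below. In 9 genes a count of none is near that share, and their median difference was 0.01. CCND1 and CCND2 lay on opposite sides of the controls' mean. CCND1, cyclin D1, had signals of 6.82 and 6.49 in the controls and 6.62 with L. acidophilus, 6.23 with L. rhamnosus, 6.39 with L. plantarum, 6.77 with L. salivarius, 6.40 with S. thermophilus, 6.16 with L. paracasei, 6.23 with L. fermentum and 6.25 with Lc. lactis. Of these arrays, 6 were below both controls, and the mean difference was -0.28 ± 0.16 (limma SE; adjusted p = 0.522 in limma). The difference was -0.45 against control 1 alone and -0.12 against control 2 alone. The lowest value was -0.50, with L. paracasei.

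CCND2, cyclin D2, had signals of 7.51 and 7.22 in the controls and 7.52 with L. acidophilus, 7.86 with L. rhamnosus, 7.64 with L. plantarum, 7.39 with L. salivarius, 7.71 with S. thermophilus, 7.70 with L. paracasei, 7.62 with L. fermentum and 7.53 with Lc. lactis. All bEV arrays but that of L. salivarius were above both controls, that of L. acidophilus only just (7.5155 against 7.5146), and the mean difference was 0.26 ± 0.13 (limma SE; adjusted p = 0.466 in limma). Set against control 1 it was 0.11, and set against control 2 it was 0.40. With L. salivarius the values were 0.11 for CCND1 and 0.02 for CCND2. Another probe set of CCND2 with a lower mean signal (5.54) had a difference of 0.07.

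CCND3, the third D-type cyclin, had a mean difference of -0.04, and the kinases CDK4 and CDK6 had -0.06 and 0.20. CDK6 was above the controls' mean with all 8 bEVs, but its controls were 0.40 apart (7.19 and 6.79), and the difference was 0.00 against control 1 alone and 0.40 against control 2 alone. CCNE1, cyclin E1, had signals of 7.30 and 7.02 in the controls and of 7.12 to 7.52 with bEVs, with a mean difference of 0.21 ± 0.11 (limma SE) that became 0.07 against control 1 and 0.35 against control 2. CCNE2 had a mean difference of 0.08 and spread widely over the strains, from -0.40 with L. rhamnosus to 0.43 with L. acidophilus. CDK2, the partner of the E-type cyclins, and CDC25A, a phosphatase that activates it, had differences of -0.05 and 0.01. CDKN2A, the gene of p16 and ARF, was the only CDK inhibitor with a symbol in the annotation used, with a mean difference of 0.12 and its highest value, 0.55, with L. paracasei.

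The E2F factors were divided, with a median difference of -0.08 over 5 genes. E2F1, an activator of S-phase genes, had signals of 7.27 and 7.38 in the controls and 7.25 with L. acidophilus, 7.05 with L. rhamnosus, 6.77 with L. plantarum, 7.28 with L. salivarius, 6.99 with S. thermophilus, 7.14 with L. paracasei, 6.88 with L. fermentum and 7.13 with Lc. lactis. All but that of L. salivarius were below both controls, and the mean difference was -0.26 ± 0.13 (limma SE; adjusted p = 0.469 in limma). L. plantarum was lowest, at -0.55.

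E2F7, an atypical E2F that represses E2F targets, had signals of 7.38 and 7.35 in the controls and 7.53 with L. acidophilus, 7.50 with L. rhamnosus, 7.47 with L. plantarum, 7.49 with L. salivarius, 7.60 with S. thermophilus, 7.59 with L. paracasei, 7.64 with L. fermentum and 7.73 with Lc. lactis. All 8 were above both controls by at least 0.09, and the mean difference was 0.20 ± 0.10 (limma SE; adjusted p = 0.458 in limma). E2F8, the other atypical E2F, did not share this, with a mean difference of -0.10 and 4 bEV arrays on each side of the controls' mean. E2F2 and E2F3, further activators, had mean differences of -0.08 and 0.14. E2F3 had signals of 7.77 and 7.48 in controls 1 and 2, and of 7.53 to 7.98 with bEVs. Its differences were -0.03 with L. paracasei, -0.09 with L. fermentum and -0.04 with Lc. lactis, while the other 5 bEV arrays lay above the controls' mean.

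Of the 12 genes of origin licensing and firing measured, none stood apart from both controls or reached 1.5-fold with any bEV. Of all genes, 5.11% lay above and 4.07% below both controls, so in 12 genes a count of none is near that share. Over all pairs of a gene and a bEV, 3.96% reached 1.5-fold (2.67% for genes at or above the median signal). The mean differences of the 12 ran from -0.20 to 0.04 with a median of -0.03. The subunits of the MCM helicase had mean differences of 0.02 (MCM2), -0.01 (MCM3), -0.03 (MCM4), -0.04 (MCM5), -0.16 (MCM6) and -0.08 (MCM7). MCM6 was below the controls' mean with all 8 bEVs, by 0.05 to 0.32. MCM8 and MCM9, which act together in recombination repair, had differences of 0.04 and 0.03, and MCM10, which joins the helicase when origins fire, had -0.04.

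CDC6, which loads the helicase onto origins, had signals of 8.17 and 7.95 in the controls and of 7.72 to 8.27 with bEVs, with a mean difference of -0.08. CDC7, the kinase that activates the loaded helicase, had 0.04. CDC45, part of the active helicase, had the lowest mean difference of the group, -0.20 ± 0.16 (limma SE), which was -0.08 against control 1 and -0.32 against control 2. Its signal was 7.17 and 7.41 in the controls and 6.84 with L. acidophilus, 6.92 with L. rhamnosus, 6.94 with L. plantarum, 7.54 with L. salivarius, 6.98 with S. thermophilus, 7.14 with L. paracasei, 7.16 with L. fermentum and 7.21 with Lc. lactis. Its highest array was that of L. salivarius, the only bEV array above both controls.

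The array of L. salivarius was also the highest of the 8 bEV arrays for MCM2, MCM3, MCM5, MCM7 and CDC6, while CDC7 was lowest there (9.28). It was not the highest for MCM4 and MCM6, the other helicase subunits, whose differences with L. salivarius were -0.01 and -0.09. With this bEV the median difference over the 12 licensing genes was 0.12, whereas the other 7 bEVs gave -0.10 to -0.04. With L. salivarius the median difference was likewise 0.13 for the CDKs of transcription and other CDKs, 0.11 for the E2F factors and 0.11 for the G1 group, but -0.07 for the mitotic cyclins and kinases and 0.00 for all genes, so the higher values were not particular to licensing. MCM5 read 8.54 and 8.59 in the controls, 8.93 with L. salivarius and 8.36 to 8.61 with the other bEVs, and MCM7 read 9.23 and 9.30 in the controls, 9.49 with L. salivarius and 9.05 to 9.19 with the others. Since L. salivarius has 1 array, its difference from the other bEVs was not tested.

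**Figure D4:**
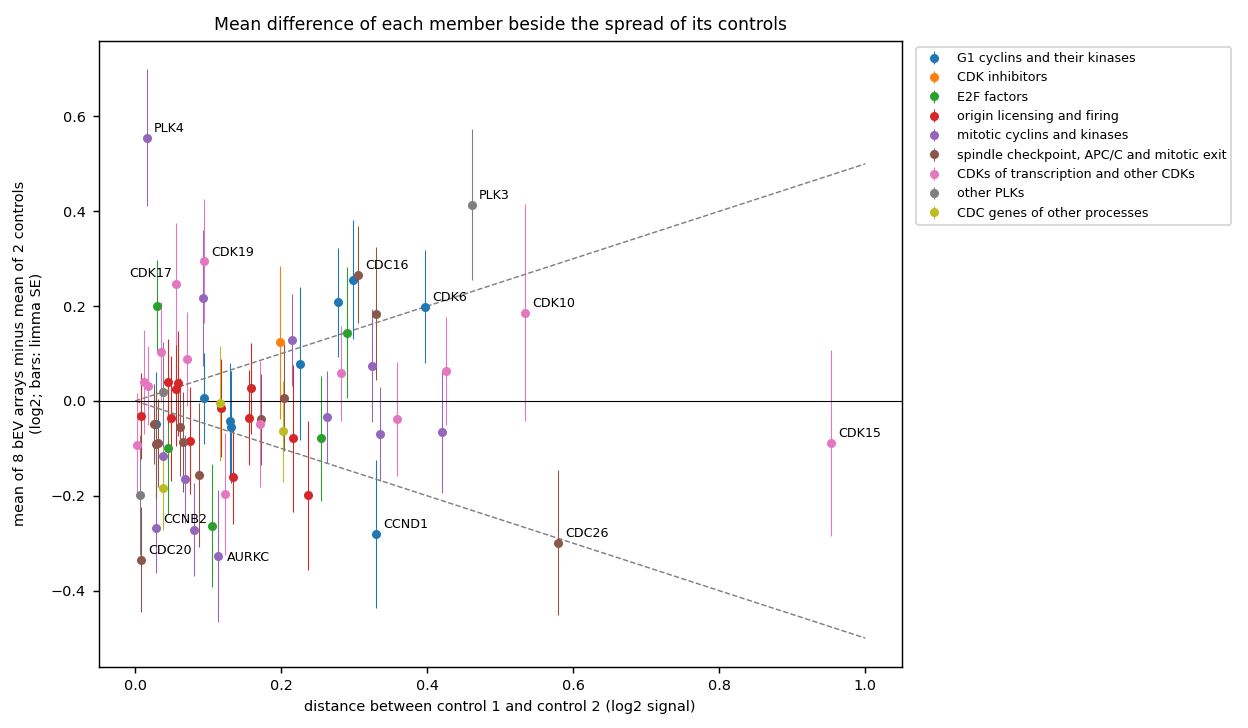
Mean log2 difference of the 8 bEV arrays from the 2 controls (y axis, bars are the limma SE) against the distance between the controls (x axis, log2) for the 71 members, coloured by role; the dashed lines mark a bEV mean equal to the higher or the lower control. PLK4 and CDC20 are at the extremes with close controls, whereas CDC26, CDK6, CDK10 and CDK15 have controls 0.40 to 0.95 apart.

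CDKs of transcription and other CDKs had a median difference of 0.05 over 14 genes. None stood apart from both controls, where 5.11% of all genes lay above and 4.07% below, and in 14 genes a count of none is near that share. CDK19, a kinase of the Mediator complex, had signals of 6.89 and 6.80 in the controls and of 6.79 to 7.36 with bEVs, with a mean difference of 0.30 ± 0.13 (limma SE; adjusted p = 0.423 in limma). Of the 8 bEV arrays, 7 were above both controls, and that of L. salivarius was below both. CDK8, its close relative in the Mediator, had a mean difference of 0.09. CDK17, a kinase of the PCTAIRE family, had 0.25, with values from -0.04 with L. plantarum to 0.53 with L. rhamnosus.

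CDK7, which activates other CDKs and phosphorylates RNA polymerase II, had a difference of -0.04, and CDK9, CDK12 and CDK13, which act in transcription elongation, had -0.05, 0.03 and 0.10. CDK5, best known from neurons, was below the controls' mean with all 8 bEVs, from -0.02 with L. paracasei to -0.51 with L. plantarum. CDK10 passed 1.5-fold with Lc. lactis, but its controls were far apart. Its signal was 4.10 and 4.64 in the controls, 5.16 with Lc. lactis and 4.12 to 4.88 with the other bEVs. CDK15, with a signal of 3.02 in control 1 and 2.06 in control 2, was the only member past 1.5-fold between the controls.

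Of the other Polo-like kinases, PLK3, known from stress responses, had the second highest mean difference of the members, 0.41 ± 0.16 (limma SE; adjusted p = 0.374 in limma). It was dim, with signals of 3.91 and 4.37 in the controls, 4.56 with L. acidophilus, 4.80 with L. rhamnosus, 4.62 with L. plantarum, 4.69 with L. salivarius, 4.51 with S. thermophilus, 4.60 with L. paracasei, 4.12 with L. fermentum and 4.50 with Lc. lactis. There, 7 bEV arrays were above both controls and that of L. fermentum lay between them. The difference was 0.64 against control 1 alone and 0.18 against control 2 alone. PLK2, also a stress-responsive kinase, had a mean difference of 0.02. PLK5, whose human protein lacks a full kinase domain, was dim (4.01 and 4.02 in the controls, 3.50 to 3.99 with bEVs) and lay below both controls with all 8, with a mean difference of -0.20.

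The CDC name also covers genes outside the cell cycle machinery. CDC123, which helps to assemble the translation factor eIF2, had signals of 8.52 and 8.48 in the controls and of 8.23 to 8.38 with bEVs. All 8 bEV arrays were below both controls by at least 0.10, with a mean difference of -0.18 ± 0.09 (limma SE; adjusted p = 0.457 in limma). CDC37, a chaperone of kinases, and CDC40, a splicing factor, had differences of 0.00 and -0.06.

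Few members passed 1.5-fold with any bEV, the threshold of the study's methods for a differentially expressed gene (DEG), here against the mean of both controls. L. rhamnosus gave 4 members (PLK4 and PLK3 higher, CDC26 and AURKC lower), where 4.64% of all genes passed. L. plantarum gave PLK4 alone (5.15% of all genes), as did S. thermophilus (3.77% of all genes), and Lc. lactis gave CDK10 alone (3.49% of all genes). L. acidophilus, L. salivarius, L. paracasei and L. fermentum gave none, where 3.56%, 2.94%, 4.66% and 3.46% of all genes passed. Between control 1 and control 2, 1 member passed, and 5.44% of all genes did. That comparison sets 1 array against 1, while each bEV array was set against a mean of 2. Over the 568 pairs of a member and a bEV, 7 (1.23%) passed, against 3.96% over all genes and 2.67% over genes at or above the median signal.

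With each bEV tested alone against both controls, limma called no gene at all with any of the 8 bEVs (0%), members included. This fit has 1 residual degree of freedom, and the lack of calls says nothing about the members. The 8 comparisons share the same 2 controls, and their values are not independent of each other. The control chosen mattered for these counts. Against control 2 alone the counts per bEV were 0 to 3, or 7 of the 568 pairs (1.23%, against 6.05% over all genes). Against control 1 alone they were 2 to 4, or 23 pairs (4.05%, against 6.61% over all genes). The highest member was PLK4 with L. rhamnosus, L. plantarum, S. thermophilus and L. fermentum, CCNB3 with L. acidophilus, PLK3 with L. salivarius, CDKN2A with L. paracasei and CDK10 with Lc. lactis. The lowest was CDC45 with L. acidophilus (-0.45), CDC26 with L. rhamnosus, E2F1 with L. plantarum, CCNB1 with L. salivarius (-0.32), PLK5 with S. thermophilus (-0.34) and L. fermentum (-0.52), CCND1 with L. paracasei and CDC20 with Lc. lactis (-0.50).

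Genes that work with the members but carry other names gave values of similar size, and none of them passed in limma. Of 41 listed genes of RB, the E2F partners and S phase, 22 were measured, and the median difference was -0.04. Of these 22, 3 (13.6%) were below and 2 (9.09%) above both controls, against 4.07% and 5.11% of all genes. For genes at or above the median signal, these shares were 5.04% and 8.37%. GINS1, a subunit of the active replicative helicase, had signals of 8.84 to 8.89 in the controls and the largest difference, -0.51 ± 0.14 (limma SE; adjusted p = 0.335 in limma), from -0.30 with L. acidophilus to -0.85 with L. paracasei. PCNA, the sliding clamp of DNA polymerase, had -0.30, and CKS1B, a small protein that binds CDKs, had -0.35, both below the controls with all 8 bEVs. RRM1, the large subunit of ribonucleotide reductase, and TOPBP1, an activator of the ATR checkpoint kinase, were above both controls at 0.24 and 0.29. RBL1, the RB relative p107, had the highest difference of this list, 0.47, but overlapped the controls.

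Of 45 listed G2/M genes, 35 were measured, and the median difference was 0.02. Of these 35, 2 (5.71%) were above and 3 (8.57%) below both controls, against 5.11% and 4.07% of all genes. WEE1, the kinase that holds CDK1 inactive, had signals of 6.89 to 7.04 in the controls and a mean difference of 0.50 ± 0.14 (limma SE; adjusted p = 0.335 in limma). Its differences were 0.39 with L. acidophilus, 0.59 with L. rhamnosus, 0.80 with L. plantarum, 0.25 with L. salivarius, 0.68 with S. thermophilus, 0.47 with L. paracasei, 0.47 with L. fermentum and 0.31 with Lc. lactis. As for PLK4, the 3 highest values were those of L. plantarum, S. thermophilus and L. rhamnosus, and the lowest was that of L. salivarius. Over all genes the median size of a difference was likewise highest with L. plantarum (0.185) and L. rhamnosus (0.178) and lowest with L. salivarius (0.146). S. thermophilus (0.170) came after L. paracasei (0.171) there. The ends of this order were thus not particular to these genes. MYBL2, which drives late cell cycle genes, was above both controls at 0.15. BIRC5, or survivin, of the chromosomal passenger complex (-0.37), CKS2, a relative of CKS1B (-0.37), and the centrosomal kinase NEK2 (-0.21) were below both controls.

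Of 13 measured subunits and regulators of the APC/C without a CDC name, ANAPC2, part of its catalytic core, was below both controls, with a mean difference of -0.40 ± 0.14 (limma SE; adjusted p = 0.351 in limma). ANAPC1, its largest scaffold subunit, had the highest difference of this list, 0.24, while overlapping the controls. Thus 1 gene of this list (7.69%) lay below both controls, against 4.07% of all genes. Of the 18 p53 targets listed, 7 were measured, and none stood apart, where 5.11% of all genes lay above and 4.07% below both controls. In 7 genes a count of none is near that share. RRM2B, a p53-induced subunit of ribonucleotide reductase, had a mean difference of 0.25 and TP53I3 of -0.26.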

How the data were processed

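Transcripts of HEK293T cells were measured on 10 arrays, and the authors deposited log2 signals per probe set. The submitters' processing notes name MAS5 and the study's methods name the GeneChip Command Console Software. How the background was corrected, probes were summarized and arrays were normalized is not given in the sources used. Array medians over all 53617 probe sets were 3.29 to 3.33, so values were used as deposited. Each of the 10 columns was matched to its sample by the sample identifier that names the column. The group of each sample was read from its title or treatment.

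Probe sets were named through the platform annotation, which gave a symbol for 16098 and left 37519 unnamed here. Where a gene had several probe sets, that with the highest mean signal was used (3 members: CCND2, CDC14B and CDC27). Differences are of log2 signals, bEV minus control. limma (version 3.58.1 in R 4.3.3) was fitted over all 14884 named genes without a block, for 8 bEV arrays against 2 controls (8 residual degrees of freedom, prior 5.14) and for each bEV against both controls (1 residual degree of freedom, with the lone array assumed to vary like the controls). The script was tested on simulated data. The number of arrays limits the precision. Probe levels are not compared between genes. Python 3.11.15, numpy 2.4.6 and pandas 2.3.3 were used for counts and promoters.

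The members and lists were chosen with earlier results of these data known. Genes named by rule are a fixed set of regulators, the members apart from both controls with up to 6 of the largest mean differences per direction, the highest and lowest member of each bEV, and the largest difference in each direction of the further lists. Any other gene was picked with its values in view. Results were recomputed with quantile normalization, centring on array medians, the average over probe sets per gene, signals floored at their 10th percentile, only genes at or above the median signal, a fold change of 2, limma with trend and robust variance, and leaving out each control or bEV array.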

Additional observations from a re-analysis of the deposited data

Results flagged for a closer look

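For 4 of the 71 members, 1 of the 8 bEV arrays lay far from the other 7 by Dixon's test. Chance alone flags about 1 in 20 groups, or 3.55 of 71, and each array is of another strain. MCM5 had a log2 signal of 8.929 with L. salivarius, against 8.36 to 8.61 with the other bEVs. MCM7 had 9.487 with L. salivarius, against 9.05 to 9.19. PLK3 had 4.116 with L. fermentum, against 4.50 to 4.80. CDC20B had 2.836 with L. paracasei, against 2.16 to 2.40, at a signal far below the median gene.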

How the results depend on the processing

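No member was called by limma under any alternative that could be fitted. The counts of members at 1.5-fold depended on the control. Leaving out control 1 or control 2 gave, as lowest and highest, 0 and 3 members for L. acidophilus, 3 and 4 for L. rhamnosus, 2 and 3 for L. plantarum, 0 and 2 for L. salivarius, 2 and 2 for S. thermophilus, 0 and 4 for L. paracasei, 0 and 2 for L. fermentum and 0 and 3 for Lc. lactis. Members above the remaining control with all 8 bEVs then numbered 10 without control 1 and 13 without control 2, and those below it 17 and 13, since fewer arrays have to be cleared, where 15.5% and 14.5% of all genes lay above and 12.4% and 14.3% below. Leaving out each bEV array in turn gave 3 to 5 members above both controls, the 5 without L. salivarius, and 7 to 10 below. Fewer arrays have to be cleared there too, and the shares of all genes are not given here, so these counts cannot be set against a background. With dimmer genes left out, L. rhamnosus gave 2 (4.37% of all genes at or above the median signal passed) and Lc. lactis 0 (2.18%). The pair of controls gave 0 there. Quantile normalization gave 2 members between the controls. At a fold change of 2, L. rhamnosus, L. plantarum, S. thermophilus, Lc. lactis and the pair of controls gave 0. Shares of all genes under quantile normalization and at a fold change of 2 are not given here. Of 460 recomputed mean differences of 31 named members, 446 moved by less than the spread between arrays and 14 by more. All 14 came from leaving out a control, for AURKA, CCNE1, CDC16, CDC26, CDK1, CDK6 and PLK3. Some of the other settings, such as the floor, left the named members' values unchanged, so the 446 are not a measure of stability. In 9 members, 12 mean differences changed sign, all on leaving out an array. The cause was not tested. The largest of these was CDK10 at 0.19, which became -0.08 without control 1. No paired analysis was possible because no label pairs a bEV array with a control. Each bEV has 1 array, so that variation from culture to culture was not measured.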
